A study of Rattus norvegicus with 27 samples.

Results

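The fibroblast growth factor (FGF) genes that steer branching of salivary buds were followed through maturation of the rat parotid acinar cell. The members were chosen by name: the ligands Fgf7 and Fgf10, the receptors Fgfr1, Fgfr2 and Fgfr3, the feedback inhibitors Spry1, Spry2 and Dusp6, and the target transcription factors Etv4 and Etv5. Every probe set paired with 1 of these symbols and no other was kept, which gave 20 probe sets of 31042 tested, for 10 genes of 14217. No cut on measured values was used, but the members were chosen with earlier results of these data known.

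RNA was measured on 27 Affymetrix whole-genome rat expression arrays, with 3 arrays at each of 9 ages, in Sprague Dawley rats (spelled Sprauge Dawley in the labels) that carried no stated allele or treatment. Sampling began before birth (E18, E20), continued on the birth day itself (P0) and went on after it at P2, P5, P9, P15, P20 and last at P25. Acinar cells or their precursors were, by the methods, laser-captured from head sections until P5 and from dissected glands thereafter, and the captures of a sample were pooled before RNA isolation. The ages were grouped into the study's stages: stage 1 spans E18 to P0 (9 arrays), stage 2 spans P2 to P5, stage 3 spans P9 to P15 and stage 4 spans P20 to P25, with 6 arrays each. These limits were drawn by the study on the same arrays. The change from heads to glands falls between stages 2 and 3, so in the comparisons of stage 3 with stage 2 and of stage 4 with stage 1 age and preparation cannot be told apart.

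In a developing salivary gland, FGF7 and FGF10 are made by the mesenchyme and bind the epithelial splice form of FGFR2, and heparan sulphate at the cell surface steadies the complex. Activated receptors signal through RAS, MEK and ERK, which drives bud growth and branching. ERK signalling raises transcription of ETV4 and ETV5, and also of Sprouty proteins and the ERK phosphatase DUSP6, which damp the same pathway.

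The feedback and target transcripts were lower in stage 4 than in stage 1, whereas the ligands and receptors differed in both directions. Over the whole span from stage 1 to stage 4, 12 of the 20 member probe sets passed the test (limma, Benjamini-Hochberg adjusted over all 31042 probe sets, threshold 0.05). All 9 probe sets of Spry1, Spry2, Dusp6, Etv4 and Etv5 were among them and all 9 fell. Markers of fibroblasts and mesenchyme fell over the same span (10 of 15 lower, 0 higher), and with their mean level as a covariate 8 member probe sets passed, 6 of them lower in place of 10. Counting 1 leading probe set per gene, the one with the highest mean level, 6 of 10 genes fell (Fgfr1, Spry1, Spry2, Dusp6, Etv4 and Etv5) and 1 rose (Fgf10). This comparison called 45.0% of all probe sets, 17.8% of them lower and 27.2% higher in stage 4, so a change in this comparison was common. The median difference of the 20 member probe sets was -0.64 on the log2 scale, beside +0.19 over all probe sets. Because that overall median shifted by 0.19, differences of stage 4 from stage 1 are given below less that shift, with the standard error (SE) and adjusted p of the unshifted difference. The shift was not uniform. Of 3 equal groups of probe sets by mean level, the brightest, which held every probe set of Dusp6, Spry1, Spry2 and Fgfr1 and the leading ones of Fgfr2 and Fgfr3, had a median difference of -0.33 with 36.2% called lower, so for these genes the values below are larger falls than against probe sets of like level. Without the subtraction Spry2 differed by -0.76 and leading Fgfr1 by -0.62. The middle group, which held Etv4, Etv5 and Fgf10, had a median of +0.19 with 14.6% called lower.

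**Figure D1:**
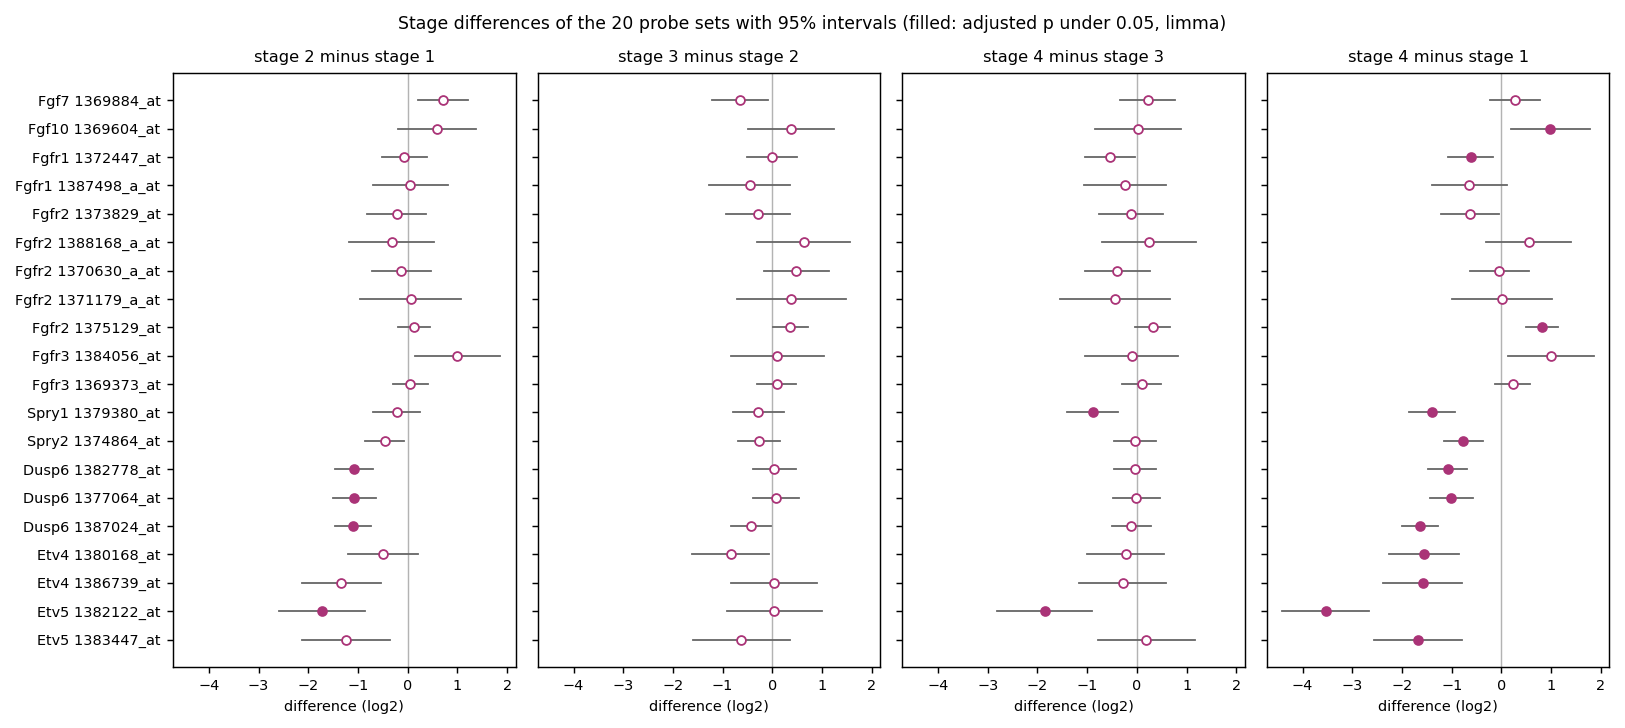
Difference between stages (log2, not corrected for the shift of the median) for each of the 20 member probe sets, with 95% confidence intervals; filled points passed an adjusted p of 0.05 in limma. The 9 probe sets of feedback and target genes all lie below 0 in stage 4 minus stage 1, and no point is filled in stage 3 minus stage 2.

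The members passed at different steps, as follows. Stage 2 was lower than stage 1 for 4 member probe sets, the 3 of Dusp6 and 1 of Etv5, beside 2.96% of all probe sets called and 1.33% called lower. Between stages 2 and 3 no member probe set passed, and 0.760% of all probe sets did; 236 probe sets passed there in limma and 4817 had an unadjusted p under 0.05. Between stages 3 and 4 Spry1 and Etv5 fell (2 of 20 probe sets), beside 8.36% of all probe sets called and 4.27% called lower. Over the 9 ages the F test called 8 of 20 member probe sets (Spry1, Dusp6 in all 3, Etv4 in both, the leading Etv5 and 1 of Fgfr2), beside 24.5% of all. Across the 8 steps between adjacent ages no member probe set passed in limma, and the steps together called 0.199% of all tests.

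Among the arrays from head sections, P5 differed from E18 in 3 member probe sets, all of Dusp6 and all lower, beside 1.26% of all probe sets. Among the dissected glands, P25 did not differ from P9 in any member probe set in limma, while 8.30% of all probe sets passed and 7861 had an unadjusted p under 0.05. The mean of stages 2 and 3 set against the mean of stages 1 and 4 called 2 of 20 member probe sets, beside 3.40% of all. Both were of Dusp6 and both differences were negative. In both, only stage 1 was high. The means of stages 1 to 4 were 11.34, 10.26, 10.30 and 10.26 for 1382778_at, and 8.47, 7.37, 6.94 and 6.83 for 1387024_at.

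**Figure D2:**
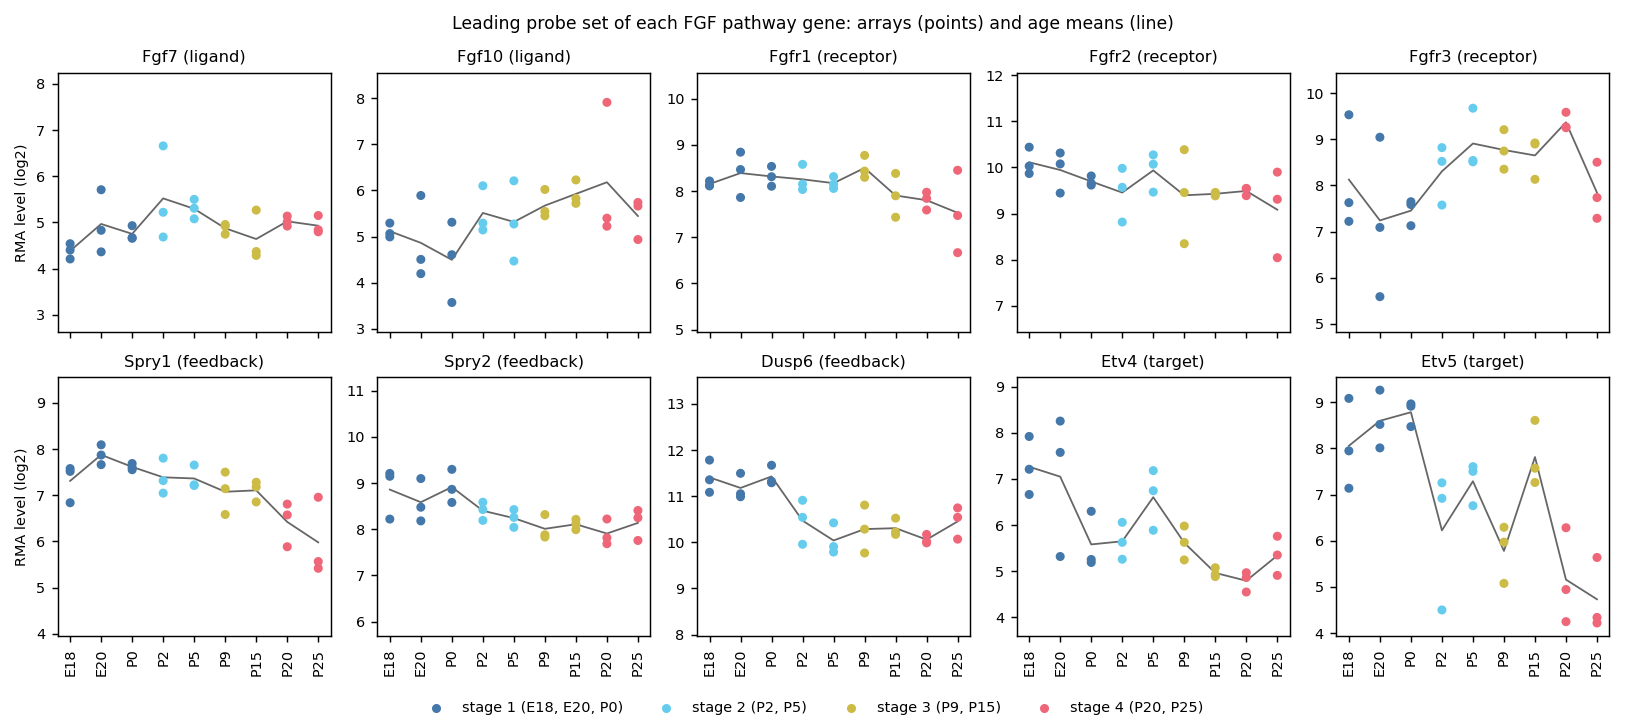
Level (RMA, log2) of the leading probe set of each gene in the 27 arrays by age; points are arrays coloured by stage, lines join the means of the 3 arrays of an age, and every panel spans the same number of log2 units. Dusp6 steps down between P0 and P5, Etv5 falls to between 4.22 and 6.28 in stage 4, and Fgfr1 has its lowest age mean at P25.

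Dusp6 encodes a cytoplasmic phosphatase that removes the activating phosphates from ERK, and its transcript is among the most direct readouts of ERK activity. Its 300-base promoter, from 250 bases before to 50 after the start, is shown with those of Etv5 and Spry1, since these are the members that fell at a step between neighbouring stages; RefSeq gives them in build GRCr8 at chr7:35979354-35979653, chr11:92113013-92113312 and chr2:122485097-122485396, all on the plus strand and written 5′ to 3′. Capitals mark the core letters that ETS factors such as ETV4 and ETV5 recognise, GGAA or, on the other strand, TTCC.
Dusp6: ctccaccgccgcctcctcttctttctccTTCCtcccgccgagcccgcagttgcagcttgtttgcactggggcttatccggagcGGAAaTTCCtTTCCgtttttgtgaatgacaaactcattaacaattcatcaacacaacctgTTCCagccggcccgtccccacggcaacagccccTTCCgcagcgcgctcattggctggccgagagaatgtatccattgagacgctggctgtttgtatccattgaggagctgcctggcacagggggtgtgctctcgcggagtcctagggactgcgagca
Etv5: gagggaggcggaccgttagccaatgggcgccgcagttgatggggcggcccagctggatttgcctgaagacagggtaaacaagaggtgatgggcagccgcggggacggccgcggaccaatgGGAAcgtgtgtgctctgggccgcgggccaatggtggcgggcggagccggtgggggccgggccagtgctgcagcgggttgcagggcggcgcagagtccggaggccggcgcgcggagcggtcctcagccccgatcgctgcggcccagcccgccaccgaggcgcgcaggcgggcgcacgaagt
Spry1: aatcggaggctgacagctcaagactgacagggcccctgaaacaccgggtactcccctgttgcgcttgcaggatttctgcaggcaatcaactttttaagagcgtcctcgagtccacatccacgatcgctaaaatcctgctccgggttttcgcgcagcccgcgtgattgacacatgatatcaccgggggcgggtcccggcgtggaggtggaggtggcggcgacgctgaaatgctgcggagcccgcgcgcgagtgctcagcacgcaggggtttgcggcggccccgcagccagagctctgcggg
The Dusp6 window held 6 core matches, the Etv5 window 1 and the Spry1 window 0; matches of either strand cannot share a base. Among 33469 rat promoters of the same length 95.8% held at least 1 match, the median was 3.0, and 16.4% held 6 or more. A match is a run of letters and not evidence of binding, and the absence of one says only that these letters are not in this window. RefSeq promoters were found for 8 of the members, and those of Fgfr1 and Etv4 are not shown.

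The leading Dusp6 probe set (1382778_at) fell at the early step. In stage 1 its 9 arrays had a lowest level of 10.99, a median of 11.32 and a highest of 11.78 on the log2 scale, while the 6 arrays of stage 2 ran from 9.79 over a median of 10.19 to 10.91. No array of stage 2 reached the lowest array of stage 1. Stage 2 minus stage 1 was -1.08 ± 0.19 (SE) with an adjusted p of 0.00162 in limma. The other probe sets fell by nearly the same amount at this step: 1377064_at fell by 1.08 ± 0.21 (adjusted p = 0.00441, limma) and 1387024_at fell by 1.10 ± 0.17 (adjusted p = 0.000668, limma). All 3 passed in each of the 27 fits that left out 1 array. With mean levels of markers of cartilage, epidermis and skeletal muscle as covariates 1382778_at (-1.07, adjusted p = 0.112, limma) and 1377064_at (adjusted p = 0.184) no longer passed, and 1387024_at did (-1.60 ± 0.27, adjusted p = 0.0110).

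The decline of Dusp6 showed within the head sections alone. At E18 1382778_at read 11.08, 11.78 and 11.36 in the 3 arrays, and at P5 it read 10.42, 9.79 and 9.91. The ranges did not overlap, and the difference of P5 from E18 was -1.37 ± 0.29 (adjusted p = 0.0165, limma), beside -1.39 ± 0.32 for 1377064_at (adjusted p = 0.0303) and -1.53 ± 0.27 for 1387024_at (adjusted p = 0.00375). Much of this fell between P0, at 11.43 ± 0.21 (SD, n = 3), and P2, at 10.47 ± 0.48 (SD, n = 3), a step of -0.96 ± 0.29 (SE) that did not pass on its own (adjusted p = 0.271, limma). Calls at P5 against E18 depended on single arrays. The call of 1382778_at was lost without E18 replicate 2, P5 replicate 2 or P5 replicate 3 (highest adjusted p = 0.0884, limma), and that of 1377064_at without any of these or E18 replicate 3 (highest 0.130). With only the E18 and P5 arrays in the fit none of the 3 passed (lowest adjusted p = 0.107).

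After P5 the leading Dusp6 probe set showed no further step past the test. Its stage means were 10.26 in stage 2, 10.30 in stage 3 and 10.26 in stage 4, and the 95% interval of stage 4 minus stage 3 ran from -0.47 to 0.38. The dimmer 1387024_at had stage means of 8.47, 7.37, 6.94 and 6.83, and its later steps did not pass either. Stage 4 lay below stage 1 by -1.27 ± 0.19 relative to the median shift (adjusted p = 0.000127, limma), again with no overlap of arrays, and 1387024_at lay below by -1.83 ± 0.17 (adjusted p = 3.25e-07). In the contrast of the middle with both ends, 1382778_at was -0.52 ± 0.14 (adjusted p = 0.0399, limma) and 1387024_at -0.49 ± 0.13 (adjusted p = 0.0361). This contrast is proportional to the difference between the early step and the late step, so for these probe sets the early and late steps differed. The call was lost for 1382778_at in 15 of 27 fits without 1 array and for 1387024_at in 12, with highest adjusted p of 0.0776 (without P9 replicate 2) and 0.0719 (without P15 replicate 3). With the mesenchyme marker level as a covariate neither passed (lowest adjusted p = 0.569).

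Etv5, an ETS transcription factor induced by FGF receptors in branching epithelium, had the widest range of age means of the members. Its leading probe set (1382122_at) had a lowest, median and highest level of 7.14, 8.52 and 9.26 in stage 1, of 4.50, 7.09 and 7.61 in stage 2, of 5.08, 6.78 and 8.61 in stage 3, and of 4.22, 4.64 and 6.28 in stage 4. All 6 arrays of stage 4 lay below all 9 of stage 1. Relative to the median shift stage 4 was lower by -3.73 ± 0.42 (adjusted p = 1.43e-06, limma). The early step was -1.72 ± 0.42 (adjusted p = 0.0253) and the late step, from stage 3 to stage 4, -1.85 ± 0.46 (adjusted p = 0.0148). The early call was lost in 4 of 27 fits without 1 array (highest adjusted p = 0.0800, without P5 replicate 3; the others were E18 replicate 3, E20 replicate 2 and P2 replicate 3); the late call was kept in all 27. With the mesenchyme markers as a covariate the early step was -1.39 ± 0.46 (adjusted p = 0.176), and with the tissue markers -1.87 ± 0.75 (adjusted p = 0.293).

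The leading Etv5 probe set was uneven within stage 3. At P9 the arrays read 5.08, 6.29 and 5.97, and at P15 they read 8.61, 7.26 and 7.57, above all P9 arrays, before 4.25, 4.94 and 6.28 at P20. Both ages belong to stage 3 and to dissected glands. None of the adjacent steps passed in limma; P20 minus P15 was -2.66 ± 0.65 (adjusted p = 0.0875).

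The second Etv5 probe set (1383447_at) gave the same direction over the whole span. It fell from stage 1 to stage 4 by -1.87 ± 0.43 relative to the median shift (adjusted p = 0.00363, limma). Its age means were lowest in P15, where the leading probe set was high, and its difference of stage 4 from stage 3 was +0.19 ± 0.47 (adjusted p = 0.839). Its difference of stage 2 from stage 1 was -1.24 and did not pass (adjusted p = 0.140, limma), nor in any fit without 1 array. The early and the late step of Etv5 thus each rest on 1 probe set, the leading one.

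**Figure D3:**
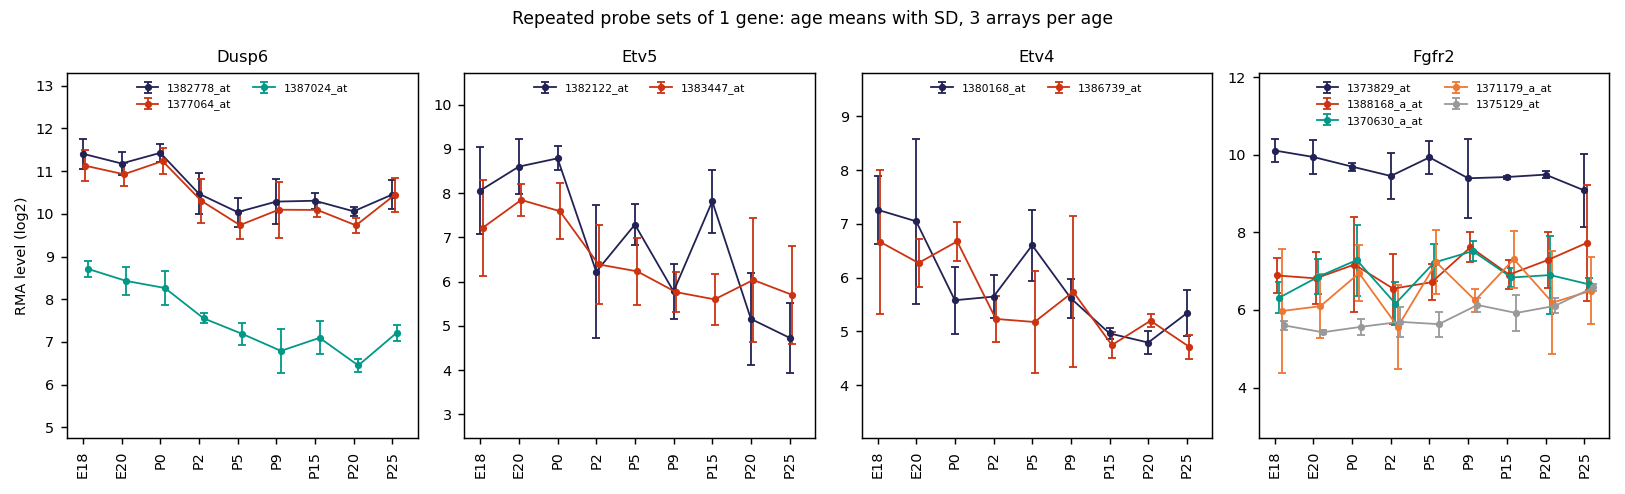
Age means (RMA, log2) with SD over 3 arrays for every probe set of Dusp6, Etv5, Etv4 and Fgfr2, by age. All 3 Dusp6 probe sets step down between stages 1 and 2, those of Etv5 part at P15, and the Fgfr2 probe sets have neither a common level nor a common direction.

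Etv4, the close relative of Etv5 and likewise an FGF-induced ETS factor, was lower late in both of its probe sets. The leading 1380168_at ran from 5.19 over a median of 6.66 to 8.25 in stage 1 and from 4.55 over 4.94 to 5.76 in stage 4, with overlap between the groups. By age its mean was 7.27 at E18, 7.05 at E20, 5.58 at P0, 6.60 at P5 and 5.34 at P25. At P0 it was thus already near its P25 level, whereas 1386739_at still read 6.68 on average. Stage 4 lay below stage 1 by -1.76 ± 0.34 relative to the median shift (adjusted p = 0.00104, limma), and for 1386739_at the value was -1.77 ± 0.38 (adjusted p = 0.00245). No step between neighbouring stages passed for either, although the early step of 1386739_at (-1.34 ± 0.38, adjusted p = 0.0617) passed with array weights (adjusted p = 0.0124), among bright probe sets (0.0458) and in 4 of 27 fits without 1 array.

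Within stage 1 the Etv4 probe sets ordered the arrays differently. The highest levels of 1380168_at were 8.25 in E20 replicate 1 and 7.92 in E18 replicate 1, and in these arrays 1386739_at read 6.01 and 5.12, the latter its lowest in stage 1. These are also the arrays with the highest cartilage marker levels (8.49 and 9.94) and with the highest skeletal muscle marker levels of stage 1 (12.14 and 12.10); the result was recomputed without them. For this, 4 arrays were set aside as high in other tissue: P5 replicate 2 and the first replicates of E18, E20 and P0. They were picked by name without a fixed cut. The highest skeletal muscle marker level of all, 12.27, was in a stage 3 array that was kept. Without the 4 arrays both probe sets still passed before the correction for the shift, at -1.14 ± 0.29 (adjusted p = 0.00777, limma) and -1.86 ± 0.36 (adjusted p = 0.000970).

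Spry1 and Spry2 encode Sprouty proteins, membrane-bound inhibitors that act upstream of ERK and are themselves raised by it. For Spry1 (1379380_at) the lowest, median and highest levels were 6.84, 7.60 and 8.09 in stage 1, 7.05, 7.27 and 7.80 in stage 2, 6.58, 7.16 and 7.50 in stage 3, and 5.42, 6.23 and 6.96 in stage 4. The fall came late: stage 4 minus stage 3 was -0.89 ± 0.25 (adjusted p = 0.0285, limma), whereas the early step had a 95% interval from -0.69 to 0.25. Relative to the median shift stage 4 was below stage 1 by -1.59 ± 0.23 (adjusted p = 6.05e-05), and the groups overlapped only in E18 replicate 3 at 6.84 and P25 replicate 1 at 6.96. The late call was lost in 7 of 27 fits without 1 array (P9 replicates 2 and 3, P15 replicates 1 and 2, P20 replicate 2, and P25 replicates 2 and 3), with a highest adjusted p of 0.0827, and with only the ages of the contrast in the fit (adjusted p = 0.117).

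The late fall of Spry1 ran alongside a fall of mesenchymal markers. The mean level of 15 fibroblast and mesenchyme markers, among them the collagen genes Col1a1, Col3a1 and Col1a2, lay between 9.15 and 9.59 in stage 3 and between 8.10 and 8.87 in stage 4, and 7 of the 15 fell at this step with 0 rising. With that level as a covariate the late step of Spry1 was -0.31 ± 0.30 (adjusted p = 0.686, limma) and stage 4 minus stage 1 was -0.71 ± 0.32 (adjusted p = 0.132). In bulk captures of this kind fewer cells of a type and less RNA per cell cannot be told apart. Under the same covariate the leading probe sets of Dusp6 (-1.38 ± 0.30, adjusted p = 0.00336) and Etv5 (-4.34 ± 0.65, adjusted p = 0.000136) still passed between stages 1 and 4, before correction for the shift, and those of Spry2 (-0.83 ± 0.31, adjusted p = 0.0700) and Etv4 (-1.43 ± 0.56, adjusted p = 0.0857) did not, at sizes close to their differences without the covariate (-0.76 and -1.56).

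Spry2 (1374864_at) fell over the whole span and at no single step. Its lowest, median and highest levels were 8.18, 8.86 and 9.30 in stage 1 and 7.69, 8.02 and 8.41 in stage 4. The groups overlapped, and stage 4 was lower by -0.96 ± 0.19 relative to the median shift (adjusted p = 0.00260, limma). The early step was -0.47 ± 0.19 (adjusted p = 0.220) and the F test over ages gave an adjusted p of 0.0573.

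Fgfr2, whose epithelial splice form is the main receptor for FGF7 and FGF10 in salivary buds, was represented by 5 probe sets that differed in level and direction. The leading 1373829_at was at or above 9.44 in all 9 arrays of stage 1, with a median of 9.87 and a highest of 10.44, and ran from 8.04 over 9.46 to 9.90 in stage 4. Its stage 4 minus stage 1 was -0.82 ± 0.28 relative to the median shift and did not pass (adjusted p = 0.0741, limma). The dimmer 1375129_at went the other way, from between 5.38 and 5.79 in stage 1 to between 5.90 and 6.67 in stage 4 with no overlap of arrays, a rise of +0.62 ± 0.16 relative to the shift (adjusted p = 0.000353). The remaining 3 did not pass in any stage comparison and spread widely within ages; 1371179_a_at, for example, read 7.34, 4.23 and 6.35 at E18. Which splice forms each probe set detects was not examined here.

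Fgfr1, a receptor of mesenchyme as well as epithelium, was nearly level up to P9. The leading 1372447_at read between 7.86 and 8.84 in stage 1, with a median of 8.22, and between 6.67 and 8.45 in stage 4, with a median of 7.72. Stage 4 was lower by -0.81 ± 0.22 relative to the median shift (adjusted p = 0.0254, limma). The call was lost without any 1 of E20 replicate 1, P20 replicate 1 and P25 replicate 2 (highest adjusted p = 0.105). After quantile normalisation the unshifted difference was -0.39 ± 0.22 (adjusted p = 0.188), with only the ages of the contrast in the fit its adjusted p was 0.0580, and with the mesenchyme markers as a covariate it was -0.27 ± 0.35 (adjusted p = 0.618). The second probe set, 1387498_a_at, differed by a similar -0.84 ± 0.36 that did not pass (adjusted p = 0.148).

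Fgfr3, a receptor best known from growth-plate cartilage and also present in stratified epithelium, varied widely in its leading probe set (1384056_at). In stage 1 the arrays read 9.53, 7.22 and 7.63 at E18, 9.04, 7.09 and 5.59 at E20, and 7.65, 7.13 and 7.59 at P0. In stage 4 they read 9.59, 9.27 and 9.25 at P20 and 7.74, 8.50 and 7.29 at P25. The groups overlapped, and stage 4 minus stage 1 was +0.81 ± 0.41 relative to the median shift, which did not pass (adjusted p = 0.0539, limma); after quantile normalisation the unshifted difference was +1.21 ± 0.40 and did (adjusted p = 0.0219). It also passed with array weights (+1.09, adjusted p = 0.0295), with the tissue markers as covariates (+1.87, adjusted p = 0.00178) and with the mesenchyme markers as a covariate (+2.00, adjusted p = 0.0329).

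Both high values of Fgfr3 in stage 1 stood in arrays with high levels of other tissue. E18 replicate 1 and E20 replicate 1 had mean levels of 8 cartilage and bone markers of 9.94 and 8.49, beside 4.85 to 7.90 in the other 25 arrays, and epidermis and hair follicle markers at 9.36 and 8.83. The highest Fgfr3 level of all, 9.67, was in P5 replicate 2, which also had the highest epidermis markers (10.40). Without these arrays and P0 replicate 1, stage 4 minus stage 1 was +1.57 ± 0.29 (adjusted p = 0.000707, limma, unshifted) and stage 2 minus stage 1 was +1.38 ± 0.31 (adjusted p = 0.0229). The choice of left-out arrays had no fixed cut and removed both high stage 1 values of Fgfr3, so these differences depend on it. In stage 4 the epidermis markers lay between 4.27 and 5.15 and the cartilage markers between 4.85 and 5.66, near the lower end of all arrays, while Fgfr3 lay between 7.29 and 9.59. The second Fgfr3 probe set (1369373_at) stayed between 3.35 and 4.43 in all arrays and passed no test.

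**Figure D4:**
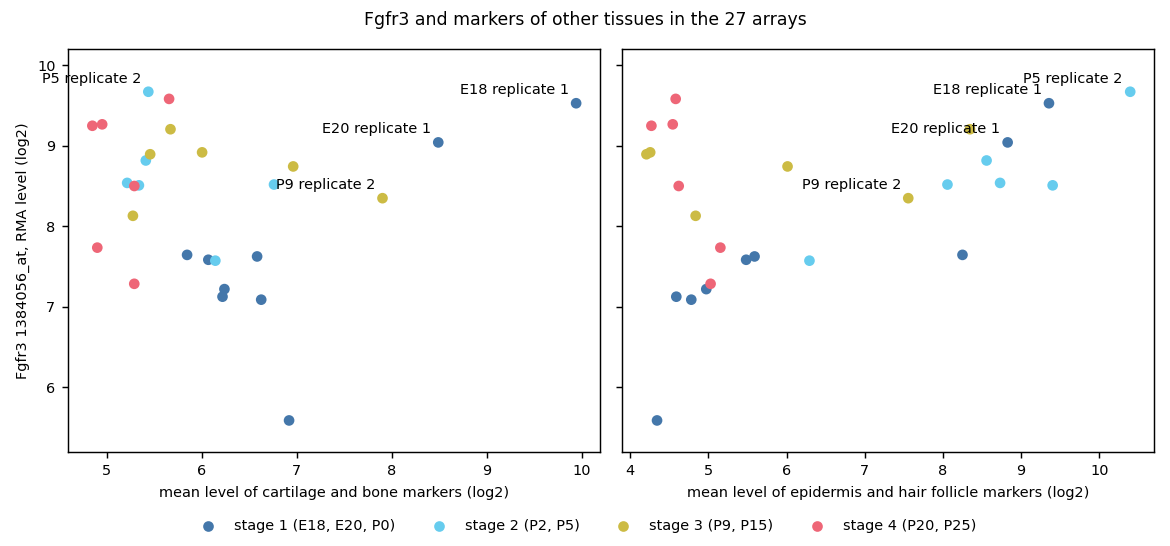
Level of Fgfr3 (1384056_at, RMA, log2) in each of the 27 arrays against the mean log2 level of cartilage and bone markers (left) and of epidermis and hair follicle markers (right), coloured by stage. E18 replicate 1 and E20 replicate 1 stand at the right of the cartilage panel with Fgfr3 at 9.53 and 9.04, whereas the 6 arrays of stage 4 have low marker levels and Fgfr3 between 7.29 and 9.59.

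The mesenchymal ligands were dim. Fgf7 (1369884_at) had a mean level of 4.93, above 30.5% of all probe sets, and Fgf10 (1369604_at) a mean level of 5.39, above 38.4%. Fgf7 lay between 4.21 and 5.71 in stage 1 and between 4.80 and 5.15 in stage 4, and passed no stage comparison; its largest step, stage 2 minus stage 1, was +0.71 ± 0.24 (adjusted p = 0.138, limma), with 1 array of P2 at 6.66.

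Fgf10 was called higher in stage 4, with limits. Its lowest, median and highest levels were 3.57, 4.99 and 5.89 in stage 1 and 4.94, 5.53 and 7.91 in stage 4, where the highest value was in P20 replicate 2 and the next in P25 replicate 1, at 5.74. The groups overlapped, and the difference was +0.79 ± 0.38 relative to the median shift (adjusted p = 0.0394, limma). Without P20 replicate 2 the unshifted difference was +0.55 (adjusted p = 0.179), and the call was lost in 8 of 27 fits without 1 array (also E18 replicates 1 and 2, E20 replicates 1 and 2, P0 replicate 1, and P25 replicates 1 and 3). It was also lost after quantile normalisation (adjusted p = 0.0921, limma), with array weights (0.0726) and with only the ages of the contrast in the fit (0.0797). The same held with either set of marker covariates (0.273 and 0.506) and without the 4 arrays high in other tissue (0.169). Dim probe sets as a whole lay higher in stage 4, and their part in the result was not tested. The dimmest of the 3 groups by mean level had a median difference of +0.42 with 41.0% called higher, and the middle one, which held Fgf10, had 26.2% called higher.

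The other genes of the pathway were read from lists of relatives and partners, with 1 leading probe set per gene. Of 15 other secreted FGF ligands, stage 4 was higher for 9 and lower for 1 (list median +0.56, beside +0.19 over all probe sets, both unshifted). Of the 9, 5 were in the dimmest group of probe sets. The 9 rose by up to +0.83 ± 0.22 relative to the shift, in Fgf22 of the middle group (adjusted p = 0.000899, limma). The 1 that fell was Fgf1, a broad-acting ligand, by -1.70 ± 0.39 (adjusted p = 0.00399). Of 4 intracellular FGF homologous factors, which are not secreted, 2 were higher (Fgf12 and Fgf14) and 0 lower. Of 6 other receptors and co-receptors 2 were higher (Kl and Cdh2) and 1 lower, the co-receptor Nrp1 (-1.62 ± 0.29, adjusted p = 0.000538). Kl was dim, with a mean level of 2.97. Cdh2 was higher in its leading probe set only (unshifted +0.55, adjusted p = 0.00195, limma). Another Cdh2 probe set, at a mean level of 6.36 beside 6.62, passed in the other direction (unshifted -2.01, adjusted p = 0.0124). The remaining one was lower without passing (unshifted -1.29, adjusted p = 0.0825).

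Genes that shape heparan sulphate or relay the signal had more members lower than higher in stage 4. Most of them were among the brightest probe sets, of which 36.2% were called lower. Of 18 heparan sulphate proteoglycans and enzymes 8 were lower and 1 higher in stage 4 (median -0.49). They included Glce, the epimerase of the chain, at -2.03 ± 0.28 (adjusted p = 2.53e-05, limma), the sulphatase Sulf2 at -1.61 ± 0.23 (adjusted p = 6.29e-05), and the sulphotransferase Hs6st1 at -1.40 ± 0.23 (adjusted p = 0.000371). Hs6st2 and Hs3st1, other sulphotransferases, were the 2 of this list already lower in stage 2, by -1.65 ± 0.37 and -0.77 ± 0.20 (adjusted p = 0.0138 and 0.0391). Of 16 measured relay genes 8 were lower and 0 higher (median -0.63), among them the kinase Akt1 (-1.62 ± 0.17, adjusted p = 1.61e-06), the phospholipase Plcg1 (-1.39 ± 0.19, adjusted p = 3.76e-05) and the MEK gene Map2k1 (-1.20 ± 0.22, adjusted p = 0.00108). Other probe sets of Akt1 were lower by less, one at -0.64 without passing (adjusted p = 0.0752).

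Relatives of the feedback and target members did not all share their direction. Of 10 other feedback inhibitors 3 were higher (Dusp4, Dusp5 and Spred3) and 2 lower (Spry4 and Flrt3) in stage 4. These counts are near the shares over all probe sets, 27.2% higher and 17.8% lower. Spred3 was higher in its leading probe set only (unshifted +0.94, adjusted p = 0.000181, limma). Its other probe set stayed level (unshifted -0.014, adjusted p = 0.964). Dusp5, a nuclear ERK phosphatase, rose by +1.49 ± 0.23 relative to the shift (adjusted p = 7.79e-06, limma) from a low level of 3.40 to 5.08, and was already higher in stage 2 by +1.44 ± 0.23 (adjusted p = 0.000642), the step at which Dusp6 fell. Spry4 fell by -1.14 ± 0.32 (adjusted p = 0.0198), like Spry1 and Spry2. Dusp7 rose between stages 3 and 4 by +0.72 ± 0.15 (adjusted p = 0.00371).

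Etv1, the remaining member of the ETV4 and ETV5 subfamily, rose where those fell. Its stage means were 11.15, 12.13, 12.62 and 12.85 in stages 1 to 4. The rise was +1.51 ± 0.16 relative to the shift (adjusted p = 4.47e-08, limma), it passed at the early step too (+0.98 ± 0.16, adjusted p = 0.000729), and all 5 Etv1 probe sets were higher in stage 4, by 1.37 to 3.77. Of the 9 other ERK-responsive transcripts 4 were higher (Etv1, Phlda1, Junb and Fosl1) and 4 lower (Ccnd1, Egr1, Fos and Ier3). Phlda1 rose by +1.27 ± 0.17 (adjusted p = 1.56e-06), while cyclin D1 (Ccnd1) fell by -2.11 ± 0.18 (adjusted p = 7.69e-08) and the immediate early gene Egr1 by -2.32 ± 0.24 (adjusted p = 5.38e-07). Fos fell by -2.82 ± 0.54 in its leading probe set (adjusted p = 0.000607), and a second, dim Fos probe set did not (+0.12, adjusted p = 0.242).

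**Figure D5:**
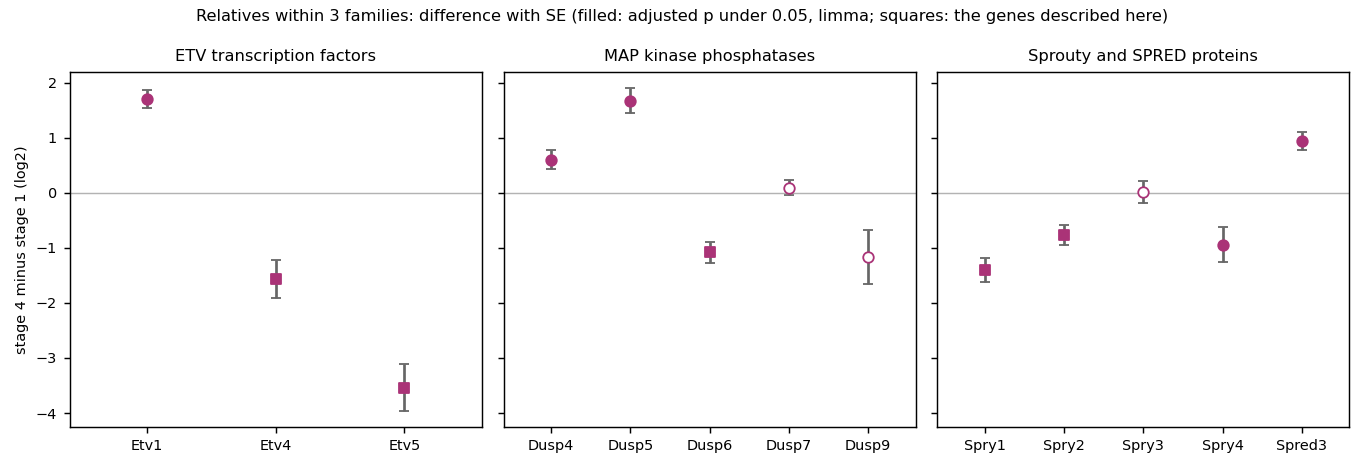
Stage 4 minus stage 1 (log2, not corrected for the shift of the median) with SE for the leading probe sets of ETV factors, MAP kinase phosphatases and Sprouty or SPRED proteins; filled points passed an adjusted p of 0.05 in limma, and squares are member genes. Etv1 and Dusp5 lie above 0 while Etv4, Etv5 and Dusp6 lie below it, and Spry4 lies below 0 as Spry1 and Spry2 do.

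Genes of the bud epithelium divided in the same span. Of 15 measured, 6 were lower and 5 higher in stage 4, beside 17.8% lower and 27.2% higher over all probe sets. The laminin chain Lama5 (-2.83 ± 0.24, adjusted p = 4.61e-08, limma) and the basal factor Tp63 (-3.05 ± 0.31, adjusted p = 3.52e-07) fell. So did the basal keratins Krt5 (-3.25 ± 0.36, adjusted p = 1.12e-06) and Krt14 (-2.74 ± 0.36, adjusted p = 1.24e-05). The leading probe sets of these genes were among the brightest, of which 36.2% were called lower. Krt5 and Krt14 are also markers of myoepithelium, but they were the only ones lower. Of 8 myoepithelium and smooth muscle markers 5 were higher and 2 lower in stage 4. The other 2 Lama5 probe sets, both dimmer, did not pass (unshifted +0.36, adjusted p = 0.151, and -0.57, adjusted p = 0.347). Ascl3, a factor of duct progenitors, was higher in stage 4 than in stage 1 by +1.98 ± 0.38 (adjusted p = 0.000126). Its level was highest before that, with means of 4.51, 8.27, 8.04 and 6.69 in stages 1 to 4. In stage 2, 4 genes were higher than in stage 1 (Ascl3, Kit, Bmp2 and Bmp4), beside 507 of all 31042 probe sets. Of these genes, Bmp2 and Bmp4 were not higher in stage 4 (unshifted -0.55 and -0.69, adjusted p = 0.284 and 0.219, limma).

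As a check of the labelled cell type, the mean level of 10 acinar markers, led by Amy1, Bpifa2 and Slc12a2, ran from 5.03 to 7.31 over the arrays of stage 1, from 9.07 to 9.85 in stage 2, from 9.76 to 11.76 in stage 3 and from 12.45 to 12.77 in stage 4, and 10 of 10 were higher in stage 4 than in stage 1. Dusp6 and the leading Etv5 probe set fell between stages 1 and 2. At this step 6 of 9 adipocyte, 4 of 9 epidermis and hair follicle and 4 of 8 myoepithelium and smooth muscle markers were higher. Of the cartilage and bone markers 2 of 8 were lower, and 0 of 10 skeletal muscle markers passed (range 4.57 to 12.27 over all arrays). The part of adipocyte and myoepithelium markers in the falls of Dusp6 and Etv5 was not tested. Mesenchymal markers ran from 8.99 to 10.09 in stage 1, with 0 of 15 changed by stage 2 and 10 of 15 lower, 0 higher, in stage 4. No stage 1 array reached the acinar marker level of any later array. Array medians lay between 5.91 and 6.13 and correlations within an age between 0.873 and 0.962.

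For each member whose leading probe set passed the F test, the genes with the most similar profile over the 27 arrays were sought among 14216 others, as a description; the arrays share stages and captures. Dusp6 ran closest to St6galnac3 (Pearson r = 0.838), Bex1 (0.821) and Cdhr1 (0.812). Etv5 was closest to Mcm3 (0.869), a subunit of the replicative helicase, Cdca2 (0.862) and the chaperonin gene Hspd1 (0.861). Spry1 was closest to Chsy1 (0.913), Csnk1d (0.897) and Chmp2b (0.892), and Etv4 to Tnnt1 (0.834), the slow skeletal muscle troponin T, Adamts8 (0.822) and Slc38a4 (0.820).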

How the data were processed

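The values deposited by the authors are on the log2 scale and come from RMA (robust multi-array averaging), which removes background, normalises across arrays and gives 1 value per probe set. The software is not given in the sources used here. Per the labels the RNA was amplified from 1.5 ng and 4.5 ng of total RNA and labelled with biotin, without a statement of the amount for each array, and its effect was not tested. Of 31099 deposited probe sets 57 controls were left out, and 20826 were paired with 1 symbol, 20758 of them through the gene ID of the reference table. Replicates were separate litters per the study's methods, and no arrays held identical values. The number of arrays limits the precision.

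The deposited log2 values were fitted in limma 3.58.1 (R 4.3.3) with a mean for each age, 18 residual degrees of freedom and moderated variances (eBayes). Tests were two-sided, adjusted by Benjamini-Hochberg over all 31042 probe sets, threshold 0.05; intervals are at 95%. They comprised an F test over ages, differences of stage means, P5 against E18, P25 against P9, the middle against both ends, and 8 adjacent steps. The procedure was tested on simulated data. The leading probe set of a gene had the highest mean over 27 arrays.

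All members were named, with up to 5 genes per pathway list past the threshold between stages 1 and 4 by the size of t, any called in another stage comparison where 5 or fewer of its list were, the marker genes of highest mean level and the 3 nearest profiles. Genes outside this rule (Junb, Fosl1, Ier3) were named, after their values were seen, to complete a count. The members and lists were chosen with earlier results of these data known. Replicate numbers recur across ages and were not treated as pairs in the main fit. Yet 18 of 27 arrays had their best match outside their age in the same number. Whether the number marks a shared batch was not tested. Alternatives covered scaling, weights, dim probe sets, the samples fitted, a replicate block, marker covariates, left-out arrays and the variance prior.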

Additional observations from a re-analysis of the deposited data

How the results depend on the processing

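For the leading probe sets in the 4 comparisons of stages, 438 differences under the alternatives, the extremes of leaving out 1 array included, kept their side of the threshold, 24 no longer passed and 14 newly passed. The sign changed in 36 of the 438, with 0 of these past the threshold. Over all member probe sets and contrasts, and apart from leaving out 1 array, 37 calls were lost and 17 gained. The F test's count of member probe sets and the counts for stage 3 against stage 2 and stage 4 against stage 1 stayed within 1.5 times their reported values; the widest move was 8 in place of 12 for stage 4 against stage 1 with the mesenchyme covariate, where lower calls went from 10 to 6. For stage 2 against stage 1 the count was 1 in place of 4 with muscle, epidermis and cartilage markers as covariates. For stage 4 against stage 3 it was 1 in place of 2 with only the ages of the contrast in the fit, with the tissue covariates and with the mesenchyme covariate, and 1 to 3 in fits that left out 1 array (3 without P25 replicate 1). For P5 against E18 it was 0 in place of 3 with only those ages in the fit, 1 with the tissue covariates, with the mesenchyme covariate and without the 4 arrays high in other tissue, and 1 to 4 in fits that left out 1 array (4 without E18 replicate 1). For P25 against P9 it was 1 in place of 0 after quantile normalisation, with array weights and among bright probe sets only, in each case Spry1, and 0 to 2 in fits that left out 1 array (Spry1 passed without P9 replicate 1, P20 replicate 2 or P25 replicate 1, and Fgfr1 also without the last). For the middle against both ends it was 1 in place of 2 with the tissue covariates, 0 with the mesenchyme covariate and without the 4 arrays, and 0 to 3 in fits that left out 1 array. It was 0 without E18, P2, P5 or P9 replicate 2, P9 replicate 3, P15 replicate 3, P20 replicate 1 or 2, or P25 replicate 3. For adjacent ages it was 1 in place of 0 with array weights and 0 to 1 in fits that left out 1 array (1 without P2 replicate 3). Leaving out 1 array at a time gave 7 to 10 for the F test, 3 to 5 for stage 2 against stage 1, 0 for stage 3 against stage 2 and 11 to 13 for stage 4 against stage 1. The causes were not tested.

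The replicate number as a block left the F test at 8 member probe sets, stage 2 against stage 1 at 4 and stage 4 against stage 3 at 2, gave 14 in place of 12 for stage 4 against stage 1, where the leading Fgfr2 and Fgfr3 probe sets passed (adjusted p = 0.0289 and 0.0423, limma), and 1 in place of 2 for the middle against both ends. The sources do not state whether arrays of the same number at different ages share a litter or a batch. Over 108 pairs of the same number the residuals correlated between -0.11 and 0.46. Their median was 0.014, beside -0.009 for other numbers. Yet 18 of 27 arrays had their best match outside their age in the same number. The filter on bright probe sets kept 18 of 20 member probe sets, those whose highest age mean was above the median of all values, 6.04.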
